A study of Arabidopsis thaliana with 4 samples.

Results

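EXPA7 (AT1G12560), EXPA8 (AT2G40610) and EXLB1 (AT4G17030) are 3 of the expansin genes of Arabidopsis thaliana, named by locus; they lie on chromosomes 1, 2 and 4. They were 3 of the 9253 genes for which a probe carried exactly 1 gene name on an Agilent Arabidopsis 2 oligonucleotide array, and each had 1 probe. Plants of the ecotype Nossen, 4 weeks old and grown on solidified medium, gave the RNA for 4 arrays. The 4 conditions were the mutant fas1-2 (p150 subunit of chromatin assembly factor 1, CAF-1), the mutant fas2-2 (p60 subunit), wild type 12 h after 100 Gy of gamma-rays at 300 Gy/h, and wild type 6 h after the same dose. On every array the condition carried the red dye, and the green dye carried its control, which was wild type for the mutants and non-irradiated wild type for the irradiated plants. Each condition had 1 array, so no condition had replicates. The tissue was rosette leaves by the sample labels, but whole seedlings without roots by the design text. The arrays carry no absolute level here, so neither tissue could be checked on marker genes, and the mutated genes were not analysed, so the genotypes were not checked either.

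Expansins are secreted proteins that loosen the plant cell wall at acidic pH without cutting its polymers, and a loosened wall lets a cell grow under its own turgor. The family has alpha-expansins (EXPA), beta-expansins (EXPB) and the expansin-like groups EXLA and EXLB, for whose proteins no wall-loosening activity is established. EXPA7 is best known from root hairs, where it is used as a marker of hair cells together with its close relative EXPA18. EXPA8 is an alpha-expansin whose transcript is known to accompany elongation of shoot organs, and EXLB1 is an expansin-like gene whose role in the wall is not established. CAF-1 places histones on newly copied DNA, and gamma-rays break DNA. Growth of the plants was not measured here.

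Values below are log2 ratios of the condition to its wild type, so that 1 is a doubling and -1 a halving. Log base and sign follow the convention of the scanner software, since the labels state neither. Transcripts spotted more than once on an array differed between spots by a pooled SD of 0.24 (fas1-2 array), 0.28 (fas2-2 array), 0.27 (12 h array) and 0.25 (6 h array) (48 transcripts, 99 spots), which is the only measure of error within an array. It covers spots, not plants. Precision is limited by the number of arrays. Since RNA came from whole tissue, fewer cells of a type and less RNA per cell cannot be told apart.

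EXPA8 was far below wild type after irradiation. Its log2 ratio was -0.99 at 12 h and -1.55 at 6 h, or 0.505 and 0.341 of the non-irradiated level. In the mutants EXPA8 was at -0.20 in fas1-2 and -0.74 in fas2-2. All 4 values were negative, and the fas1-2 value was within the SD between spots. With the condition in red on all 4 arrays, a dye effect of a gene cannot be told apart from its level in such values. Counted from the lowest of 9253 genes, EXPA8 was the 71st at 12 h and the 24th at 6 h, the 228th in fas2-2 and the 1885th in fas1-2. Counted over all 22575 features, named or not, it was less extreme at both times. There it was the 729th lowest at 12 h and the 542nd at 6 h, the 1078th in fas2-2 and the 4819th in fas1-2. In limma, which took the 2 times as 1 setting, its mean was -1.27 (SE 0.21, 95% interval -1.86 to -0.68), lower on both arrays, with an unadjusted p of 0.00441 and an adjusted p of 0.231 over all genes, so it was not called. No gene of the 9253 was called by limma after irradiation (0%; 7.51% of genes were higher and 7.12% lower at an unadjusted p under 0.05). For the mutants its mean was -0.47 (SE 0.21, 95% interval -1.06 to 0.12) with an adjusted p of 0.304 in limma.

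EXLB1 stood above wild type in both mutants and below it at both times after irradiation. Its log2 ratio was 1.45 in fas1-2 and 0.87 in fas2-2, which is 2.72 and 1.83 times the wild-type level. After irradiation EXLB1 was at -0.89 at 12 h and -1.64 at 6 h, or 0.538 and 0.320 of non-irradiated wild type. Each of these 4 values was at least 3.06 times the SD between spots of its array. EXLB1 was the 55th highest gene in fas1-2, the 236th highest in fas2-2, the 101st lowest at 12 h and the 18th lowest at 6 h. Among all 22575 features it was the 127th highest in fas1-2 and the 642nd highest in fas2-2. After irradiation it was the 797th lowest feature at 12 h and the 522nd lowest at 6 h. Its mean in the mutants was 1.16 (SE 0.25, 95% interval 0.45 to 1.87), with an unadjusted p of 0.0112 and an adjusted p of 0.148 in limma, beside 0.119% of all genes called. After irradiation the mean was -1.27 (SE 0.25, 95% interval -1.98 to -0.56), with an unadjusted p of 0.00821 and an adjusted p of 0.249 in limma.

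**Figure D1:**
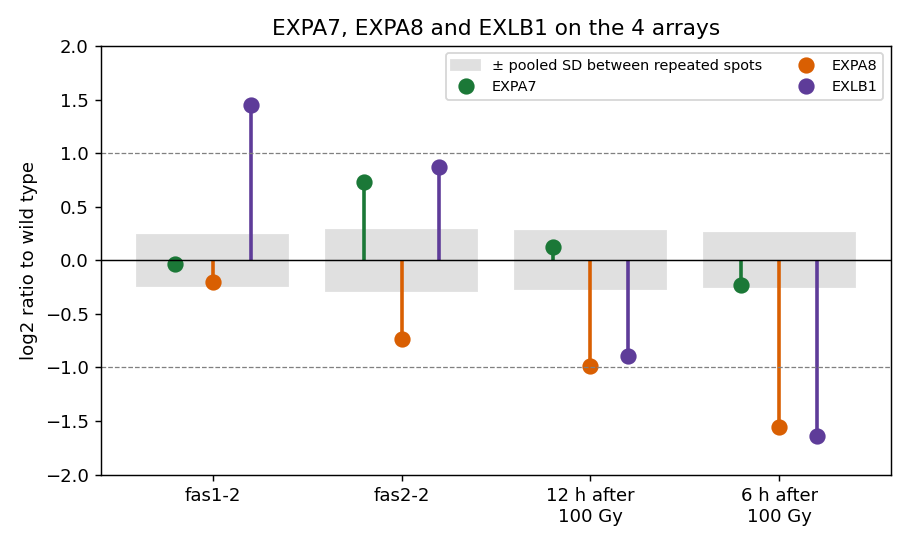
Log2 ratio to wild type (vertical axis) of EXPA7, EXPA8 and EXLB1 on the 4 arrays, 1 point per gene and array; grey boxes show the pooled SD between repeated spots on that array and dashed lines mark a 2-fold ratio. EXLB1 is at 1.45 and 0.87 in fas1-2 and fas2-2 but at -0.89 and -1.64 at 12 h and 6 h, EXPA8 is below 0 on every array, and EXPA7 leaves the grey box only in fas2-2, at 0.73.

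The difference between the settings was tested for EXLB1 in the same model; a dye effect of a gene cancels in it. The mean of the mutants was 2.43 log2 units above that of the irradiated plants (SE 0.35, 95% interval 1.42 to 3.43), with all 4 arrays in that direction, an unadjusted p of 0.00288 and an adjusted p of 0.207 in limma. No gene passed for that difference (0%), where 6.42% of genes were higher in the mutants and 7.91% lower at an unadjusted p under 0.05. EXPA8 differed by 0.80 between the settings (SE 0.29, 95% interval -0.037 to 1.64; adjusted p of 0.356 in limma). EXPA7 differed by 0.40 (SE 0.32, 95% interval -0.50 to 1.30; adjusted p of 0.602 in limma).

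EXPA7 lay near wild type on 3 of the 4 arrays. Its log2 ratio was -0.034 in fas1-2 and 0.73 in fas2-2, and 0.13 at 12 h and -0.23 at 6 h. The fas2-2 value, 1.66 times wild type, stood apart from the other 3, which were each within the SD between spots of their arrays. EXPA7 was the 331st highest gene in fas2-2, and the 901st highest of all 22575 features. Between the mutants, fas1-2 minus fas2-2 was -0.76, or 2.06 times the SD between spots of such a difference, and 4.97% of all genes differed by more in either direction. This difference has no replicate check. The mean over the mutants was 0.35 (SE 0.22, 95% interval -0.29 to 0.98; adjusted p of 0.430 in limma) and that over the times -0.052 (SE 0.22, 95% interval -0.69 to 0.58; adjusted p of 0.935 in limma). The positive mutant mean rested on the fas2-2 array, since EXPA7 without it was at -0.034.

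Because EXPA7 marks root hairs and the tissue held no roots by the design text, its value was set beside a list of 14 root hair and root genes. Only 2 of the 14 had a named probe. PYK10 (AT3G09260), a root beta-glucosidase of ER bodies, was at 0.34 in fas1-2 and 1.0 in fas2-2, and at 0.029 at 12 h and -0.40 at 6 h. EXPA18 (AT1G62980), the other root hair alpha-expansin, was at 0.14 in fas1-2 and 0.19 in fas2-2, and at 0.086 at 12 h and 0.14 at 6 h. PYK10 was thus higher in fas2-2 than in fas1-2, as EXPA7 was, while the 2 values of EXPA18 differed by less than the SD between spots. Neither gene passed in limma (0 of 2), beside 0.119% of all genes in the mutants, 0% after irradiation and 0% in the difference. PYK10 was higher in the mutants at an unadjusted p under 0.05 in limma, as were 9.59% of all genes. The part of root tissue in the EXPA7 value was not tested.

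**Figure D2:**
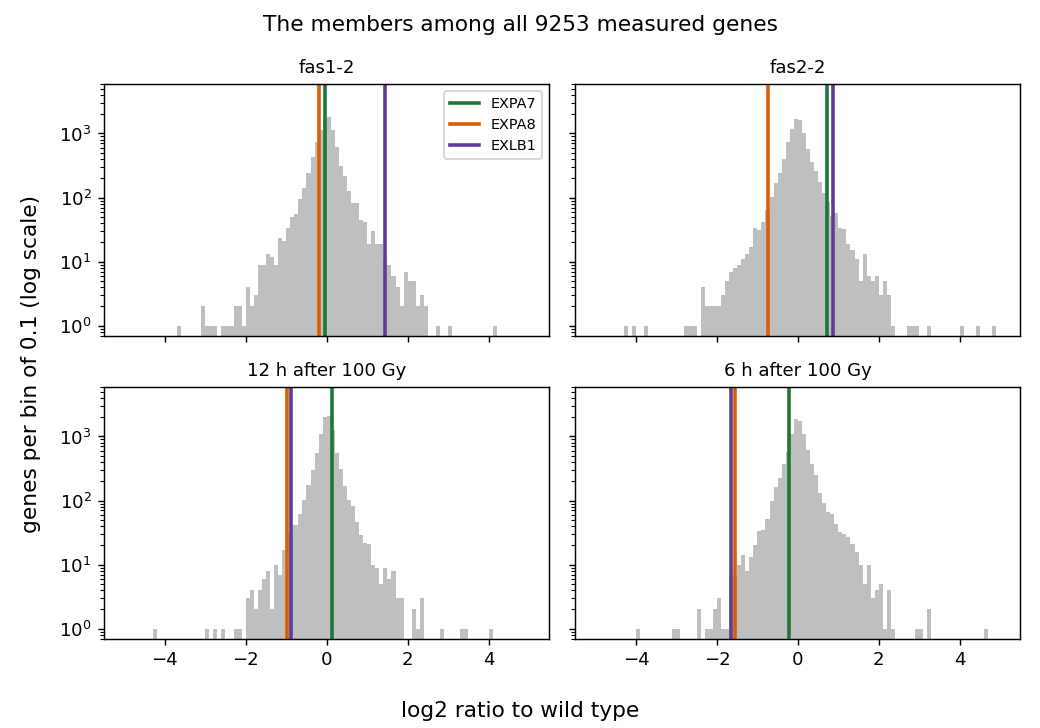
Histograms of log2 ratios to wild type of all 9253 genes on each array (horizontal axis in log2 units, vertical axis genes per bin of 0.1 on a log scale), with vertical lines at EXPA7, EXPA8 and EXLB1. EXLB1 lies in the upper tail in both mutants and beside EXPA8 in the lower tail at 12 h and at 6 h, where they rank 101st and 71st, and 18th and 24th, from the lowest.

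The 2 times were then compared for each gene, by value. EXPA8 was 0.56 higher at 12 h than at 6 h and EXLB1 0.75 higher, so both were nearer to non-irradiated wild type at 12 h. These differences were 1.54 and 2.04 times the SD between spots. Of all genes, 10.2% and 5.83% differed by more between the times. EXPA7 was 0.36 higher at 12 h, which is 0.968 times that SD. Across all genes the spread (scaled median absolute deviation) was 0.17 at 12 h and 0.21 at 6 h. With the arrays scaled to 1 spread, EXPA8 was at -1.18 at 12 h and -1.55 at 6 h, and EXLB1 at -1.07 and -1.64. The gaps of these 2 genes between the times were then smaller. Between the mutants, fas1-2 minus fas2-2 was 0.54 for EXPA8 and 0.57 for EXLB1, at 1.46 and 1.56 times the SD. The arrays have no replicates, so none of these differences was tested.

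The wider expansin family was drawn from 36 known loci and from gene symbols, which added the 2 natriuretic-peptide genes also listed as EXLB2 and EXLB3. Of these 38 genes, 15 had a named probe, 9 of them EXPA, 3 EXPB, 2 EXLA and 1 EXLB. At 6 h after irradiation 4 of the 15, or 26.7%, were at least 2-fold below non-irradiated wild type, beside 1.01% of all 9253 genes. The 4 were EXLB1, EXPA8, the beta-expansin EXPB3 (AT4G28250) at -1.33 and the alpha-expansin EXPA15 (AT2G03090) at -1.21. EXPB3 and EXPA15 were the 50th and 60th lowest of the 9253 genes. None was at least 2-fold higher at 6 h, beside 1.88% of all genes. The family's median at 6 h was -0.18, where the median of all genes was 0.00025, and 12 of the 15 lay below 0, where 49.7% of all genes did. EXPA8 and EXLB1 were known to be low before the family was counted. Among the other 12 expansins, 2 were at least 2-fold lower, 9 were below 0, 10 lay within the SD between spots and the median was -0.14.

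These 4 genes did not stay together at 12 h. EXPB3 stood at 0.021 and EXPA15 at 0.090, both within the SD between spots, while EXPA8 and EXLB1 were still at -0.99 and -0.89. None of the 15 was at least 2-fold from wild type at 12 h, beside 0.908% of all genes higher and 0.746% lower. The family's median was 0.021, with 7 of 15 below 0. The highest was EXLA2 (AT4G38400), an expansin-like gene, at 0.42, and 11 of the 12 expansins other than EXPA7, EXPA8 and EXLB1 lay within the SD between spots. In limma 0 of 15 passed after irradiation. At an unadjusted p under 0.05 there were 2 lower, beside 7.12% of all genes, and 0 higher, beside 7.51%. The 2 were EXPA8 and EXLB1, known to be low before the family was counted.

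**Figure D3:**
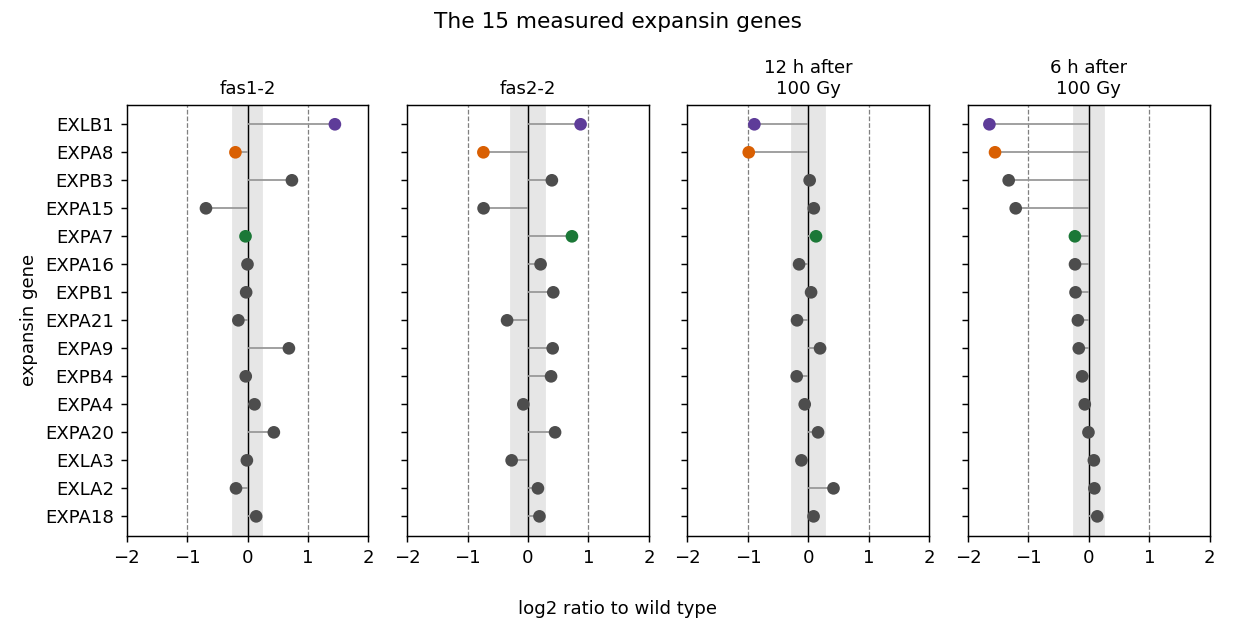
Log2 ratios to wild type (horizontal axes) of the 15 expansin genes with a named probe, 1 panel per array, ordered by the value at 6 h; grey bands show the pooled SD between repeated spots and dashed lines a 2-fold ratio. EXLB1, EXPA8, EXPB3 and EXPA15 lie between -1.64 and -1.21 at 6 h, and at 12 h only EXLB1 and EXPA8, at -0.89 and -0.99, remain far from 0.

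In the mutants the family was spread to both sides of wild type. EXLB1 in fas1-2 was the only value of the 30 at least 2-fold from wild type, 1 of 15 or 6.67%, beside 1.58% of all genes higher and 1.29% lower. In fas2-2, 0 of 15 were at that distance, beside 1.77% higher and 1.34% lower. In fas1-2 the median was -0.011 and 6 of 15 lay above 0. The median in fas2-2 was 0.21 and 10 of 15 lay above 0. EXLB1 was known to be high in the mutants before the family was counted. Among the 12 expansins other than EXPA7, EXPA8 and EXLB1, 0 were at least 2-fold from wild type in fas1-2 and 0 in fas2-2. The medians of these 12 were -0.0059 in fas1-2 and 0.20 in fas2-2. Next to EXLB1, EXPB3 stood at 0.73 in fas1-2 and 0.40 in fas2-2, EXPA9 (AT5G02260) at 0.68 and 0.41, and EXPA20 (AT4G38210) at 0.44 and 0.45. EXPA15 was the lowest beside EXPA8, at -0.69 in fas1-2 and -0.73 in fas2-2. In limma 0 of 15 passed. At an unadjusted p under 0.05 there were 3 higher (EXLB1, EXPA9 and EXPA20, 20% of 15) beside 9.59% of all genes. Of the 3 higher, EXLB1 was known to be high before the family was counted. At the same threshold 1 was lower (EXPA21, AT5G39260, at -0.15 and -0.35) beside 11.3% of all genes. The smallest adjusted p of the family was 0.122, for EXPA20.

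EXPB3 had the same signs as EXLB1 in the mutants and at 6 h, and EXPA15 those of EXPA8, but at 12 h EXPB3 and EXPA15 were near 0. EXPB3 differed between the settings by 1.22 (SE 0.51; adjusted p of 0.390 in limma) and EXPA15 by -0.15 (SE 0.48; adjusted p of 0.897 in limma). The remaining expansins were EXPA4, EXPA16, EXPB1, EXPB4 and EXLA3. EXPA4 (AT2G39700) stood between -0.077 and 0.12 on the 4 arrays. EXPB1 (AT2G20750) was at -0.023 in fas1-2 and 0.42 in fas2-2, and EXPB4 (AT2G45110) at -0.030 and 0.38. The 3 measured beta-expansins were thus all above 0 in fas2-2 (0.38 to 0.42) and all below 0 at 6 h (-1.33 to -0.11). At 6 h EXPB1 and EXPB4 were within the SD between spots, at -0.22 and -0.11. EXPA16 (AT3G55500) was highest in fas2-2 at 0.21 and lowest at 6 h at -0.23, and EXLA3 (AT3G45960) lay between -0.27 in fas2-2 and 0.083 at 6 h. Whether the probes of these related genes also bind each other's transcripts was not tested.

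**Figure D4:**
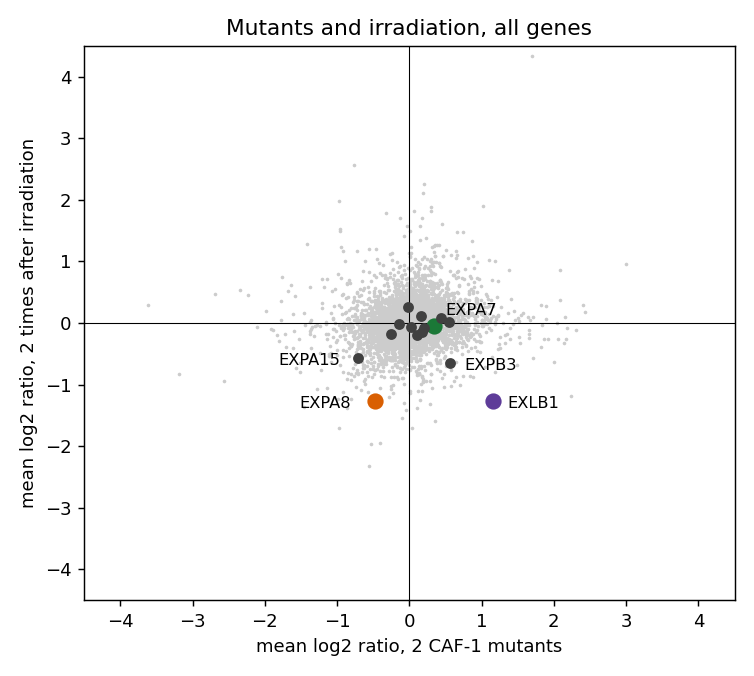
Mean log2 ratio of the 2 mutants (horizontal axis) against the mean of the 2 times after irradiation (vertical axis) for all 9253 genes (grey) and the 15 measured expansins (large coloured points for EXPA7, EXPA8 and EXLB1, dark points for the others). EXLB1 lies at 1.16 and -1.27, at the lower right edge of the cloud, and EXPA8 at -0.47 and -1.27.

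The combination shown by EXLB1 was counted at a limit of 0.8 log2 units, and no other limit was tried. The limit was set after its values were seen and is nearer to 0 than all of them, so EXLB1 had to pass. At that limit EXLB1 was the only gene of 9253 above wild type in both mutants and below it at both times. That it was the only gene depends on the limit as well. SWEET13 (AT5G50800) had the same signs on all 4 arrays but missed the limit, at 0.65 in fas2-2 and -0.79 at 6 h. At the same limit 87 genes were above wild type in both mutants and 23 below it at both times, EXPA8 among the 23. The opposite combination was found for 2 genes, AT5G47050 and AT5G62080.

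Genes with the most similar pattern were found by the Euclidean distance over the 4 log2 ratios. No gene lay within 0.5 log2 units of EXLB1. The nearest was COR15A (AT2G42540), a cold-induced chloroplast protein, at a distance of 0.85; its ratios were 1.10 in fas1-2 and 0.58 in fas2-2, with -0.17 at 12 h and -1.56 at 6 h. SWEET13 (AT5G50800), a sucrose transporter, followed at 0.94 with 1.12 in fas1-2, 0.65 in fas2-2, -0.97 at 12 h and -0.79 at 6 h. COR15A was therefore close to EXLB1 at 6 h but not at 12 h, and SWEET13 at 12 h but not at 6 h. The next were GSTU20 (AT1G78370), a glutathione transferase, at 1.16, PRN (AT3G59220), a pirin, at 1.16, and AT3G51930 at 1.21.

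EXPA8 had 2 genes within 0.5 log2 units, AT3G48490 at 0.36 and AT5G35940 at 0.49. AT3G48490 had -0.42 in fas1-2 and -0.63 in fas2-2, with -0.88 at 12 h and -1.80 at 6 h. AT5G35940 was at -0.57 in each mutant, and at -0.96 at 12 h and -1.28 at 6 h. AT3G28750 (0.52), AT3G28790 (0.62) and scpl37 (AT3G52010, a serine carboxypeptidase-like gene, 0.65) completed the 5 nearest, all of them below 0 on every array. Around EXPA7, which lay near the bulk of the genes, 263 genes fell within 0.5 log2 units, so its pattern was shared by many genes. The 5 nearest were AGL76 (AT5G40120), a MADS-box gene, at 0.17, AT2G01820 and AT1G56050 at 0.19, and AT1G58060 and AT4G29240 at 0.20.

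The nearest measured genes along the chromosome did not have the values of the 3 expansins. EXPA8 lies between AT2G40600 and AT2G40620, which stood at -0.034 and -0.086 at 12 h and at 0.48 and -0.035 at 6 h. EXLB1 has AT4G17020 directly before it, at -0.14 in fas1-2 and 0.081 in fas2-2, and at -0.23 at 12 h and 0.16 at 6 h. After it, 2 genes away, UGLYAH was at 0.17 in fas1-2 and 0.23 in fas2-2, and at -0.066 at 12 h and -0.20 at 6 h. These are the signs of EXLB1, but each value was within the SD between spots. Next to EXPA7, AT1G12570 was at -1.27 in fas2-2, where EXPA7 was at 0.73.

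Other genes of wall loosening and growth were set beside the expansins from 10 further lists, of which 4 had no named probe (arabinogalactan and fasciclin-like proteins, extensins and related proteins, plasma membrane proton pumps and aquaporins). In limma 0 of their 49 measured genes passed in the mutants, after irradiation or in the difference. At an unadjusted p under 0.05, 5 were higher and 5 lower in the mutants (9.59% and 11.3% of all genes), and 0 were higher and 4 lower after irradiation (7.51% and 7.12% of all genes). The xyloglucan endotransglucosylase/hydrolases, which cut and rejoin xyloglucan chains, had 9 of 33 genes measured and medians of -0.070 in fas1-2, -0.14 in fas2-2, -0.0003 at 12 h and -0.10 at 6 h. Their only member at least 2-fold from wild type was XTH33 (AT1G10550), at -1.49 in fas1-2 and -1.94 in fas2-2 (adjusted p of 0.0807 in limma for the mutants), and at -0.16 at 12 h and -0.63 at 6 h. XTH33 was low in both mutants, where EXLB1 was high.

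None of the 9 measured cellulose and hemicellulose synthase genes was at least 2-fold from wild type on any array. Their values lay between -0.77, for CSLB03 (AT2G32530) in fas1-2, and 0.44. At 6 h 8 of the 9 were below 0, where 49.7% of all genes were. Their median at 6 h was -0.071, within the SD between spots. The 14 endo-1,4-beta-glucanases, which cut beta-glucans, held no 2-fold value either, and their medians ran from -0.10 to 0.012. GH9B8 (AT2G32990) was furthest from 0 on average, at 0.36 in fas1-2 and 0.71 in fas2-2, and at -0.36 at 12 h and -0.31 at 6 h, the signs of EXLB1 at smaller size. Of 5 pectin-modifying enzymes, the pectin methylesterase gene ATPMEPCRD (AT2G43050) was at -0.55 in fas1-2 and -1.19 in fas2-2. After irradiation it was at 0.014 at 12 h and -0.031 at 6 h. The 5 genes went both ways in the mutants, with 3 above 0 and 2 below 0 in each. Their medians were 0.030 in fas1-2 and 0.044 in fas2-2, and their highest values 0.83 and 0.79.

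Of the early auxin response genes, 11 of 122 were measured, with medians between -0.10 and 0.048 on the 4 arrays. GH3.9 (AT2G47750), of the family that joins hormones to amino acids, had ratios of 1.03 in fas1-2 and 1.34 in fas2-2, with -1.49 at 12 h and -0.11 at 6 h. Its mutant and 12 h values had the signs of EXLB1, but at 6 h, where EXLB1 was lowest, GH3.9 was near wild type. IAA31 (AT3G17600), a transcriptional repressor of auxin signalling, was at 1.19 in fas1-2 and 0.28 in fas2-2, and at 0.15 at 12 h and 0.20 at 6 h. The list of growth regulators had 1 of 69 genes measured, ARL (AT2G44080), which promotes cell expansion, at -0.30 in fas1-2 and -0.33 in fas2-2, and at -0.24 at 12 h and -0.029 at 6 h.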

How the data were processed

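RNA from 4 conditions was measured on 4 two-colour arrays, 1 per condition. The authors deposited 1 log10 ratio per feature and array; per the submitters' processing notes the software was Agilent Feature Extraction (version not given), and background correction and dye normalization are not given in the sources used here. Log base and direction (red over green) are a reading from that software and from the range of the deposited values, -1.8 to 1.66. The deposited log10 ratios had medians between -0.00144 and -0.000444 per column, so the arrays were centred before deposit. Without spot intensities, signal over background and saturation are unknown and no spot was filtered.

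Multiplying by 3.32 gave log2 ratios. Among 22575 features, 9335 had 1 gene name in GEO's platform annotation of the array, 40 several and 13200 none; the first kind alone was used, and the last kind may still be genes. Through gene identifiers 9317 matched the reference list (TAIR10.1) and 18 were left under the name in that annotation. Averaging the probes of each gene left 9253 genes. Coordinates are not printed, since the array's build is not stated.

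The test was limma 3.58.1 under R 4.3.3. All 4 arrays entered lmFit and eBayes, with 1 mean per setting (mutant, irradiated) and the contrast between them, Benjamini-Hochberg adjustment over 9253 genes and a threshold of 0.05. It has 2 residual degrees of freedom and a prior of 1.78. Its error comes from how far the 2 mutants, and the 2 times, lie apart; it leaves out the controls' own spread, and whether the controls were 1 RNA, or the samples separate cultures, is not stated. The step was also run on simulated data, whose outcome is not given here, so nothing is drawn from it. Arrays were not correlated below 0 with each other. Over the 9253 genes, Pearson correlations were 0.52 between the mutants and 0.30 between the times. Between a mutant and an irradiated array they were 0.040 to 0.15. Over all features, named or not, these correlations were higher, at 0.76, 0.73 and 0.60 to 0.66 in the same order. The condition was red on every array, and the part of the dyes in these correlations was not tested.

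The 3 genes, the lists and the rule for named genes were chosen with earlier results of these data known. The rule names the 3 genes and all measured expansins, the members of other lists at least 2-fold from wild type on any array (or else the 1 furthest from 0 on average), and the 5 genes nearest to each of the 3. XTH20, GH9B13 and IAA15 are named below only for opposite signs. PRP39 and PEX4 were taken out of the extensin list because their symbols only resemble it. Alternatives were centring, scaling, robust moderation, all features, exact zeros as missing, each array left out and the log base.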

Additional observations from a re-analysis of the deposited data

Results flagged for a closer look

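EXLB1 stood on opposite sides of wild type in the 2 settings, beyond the SD between repeated spots on all 4 arrays. Its mean of 1.16 in the mutants was 2.43 above its mean of -1.27 after irradiation, and that difference did not pass in limma (adjusted p = 0.207). GH9B8, an endo-1,4-beta-glucanase gene, did so at smaller size, averaging 0.53 over the mutants and -0.33 over the irradiated arrays, a difference of 0.87 (adjusted p = 0.221 in limma). XTH20, a xyloglucan endotransglucosylase/hydrolase gene, was at -0.29 in fas1-2 and 0.45 in fas2-2, a difference of -0.74 that was not tested. IAA15, a repressor gene of auxin signalling, was at -0.24 in fas1-2 and 0.61 in fas2-2, a difference of -0.85, also not tested. GH9B13, another endo-1,4-beta-glucanase gene, was at 0.28 at 12 h and -0.29 at 6 h, a difference of 0.57, likewise not tested. With 1 array per condition, opposite signs beyond the SD between spots need only 2 values.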

How the results depend on the processing

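No result of EXPA7, EXPA8 or EXLB1 passed in limma under any alternative. With centring, scaling, robust moderation, all features, exact zeros as missing and the other log base, each of the 9 means and differences kept its sign, with adjusted p from 0.119 to 0.944. Counts of calls over the whole array did change. All 22575 features, named or not, were then tested in limma. It called 156 higher and 600 lower in the mutants, against 7 and 4 of the 9253 genes. After irradiation it called 112 higher and 512 lower, against 0 and 0. Which of these features are genes is not known here. Over all features, a mutant and an irradiated array were correlated at 0.60 to 0.66. How far these calls reflect values shared by all arrays was not tested. With 1 array left out, 34 of 36 kept their sign; EXPA7 in the mutants was at -0.034 without fas2-2, and EXPA7 after irradiation at 0.13 without the 6 h array. The ranges with 1 array left out were -0.034 to 0.73 (EXPA7), -0.74 to -0.20 (EXPA8) and 0.87 to 1.45 (EXLB1) in the mutants. After irradiation they were -0.23 to 0.13, -1.55 to -0.99 and -1.64 to -0.89, and for the mutants minus irradiated 0.018 to 0.78, 0.52 to 1.08 and 2.05 to 2.80, in the same order of genes. Here a lone array is assumed to vary like the others. If the deposited values were log2 in place of log10, the p-values would stay but no expansin would be 2-fold from wild type, so the count of 4 at 6 h (chosen as a result after the data were seen) would be 0. EXPA7 in fas2-2 would be 0.22 and EXPA8 in fas2-2 -0.22. EXPA8 would be -0.30 at 12 h and -0.47 at 6 h. EXLB1 would be 0.44 in fas1-2, 0.26 in fas2-2, -0.27 at 12 h and -0.49 at 6 h. With centring or scaling the count stayed at 4. No paired analysis was possible because each condition had 1 array and the labels give no replicate numbers.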
